A study of Mus musculus with 6 samples.

Results

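Collagen and laminin chains, which include structural proteins of the wall around the seminiferous tubule, were examined in testes of control and knockout mouse pups. The chains were taken by name: every row of the deposited table whose 1 platform gene symbol was a numbered collagen chain (Col, a number, a, a number) or a numbered laminin chain (Lama, Lamb or Lamc). This gave 56 rows and 54 genes among 21789 rows with 1 gene symbol, and the row with the highest mean over the 6 arrays stood for each gene. They were set in 3 classes: 16 basement membrane chains (6 chains of collagen IV and 10 laminins), 11 fibrillar collagens and 27 other collagens. Apart from the mean that picked a row, the rule uses names alone, though earlier results of these data were known when the members were chosen.

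The testes came from pups at postnatal day 15, when the first wave of germ cells is in meiotic prophase. Of 6 Affymetrix mouse gene arrays, 3 carried RNA of testes labelled control and 3 RNA of testes labelled knockout, and both groups shared tissue and age. The sources used here name no strain, allele or Cre driver. Nor do they say that each replicate is its own animal, so p-values reflect the spread among these 6 samples alone, and that spread may be technical.

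The seminiferous tubule rests on a basement membrane, a thin sheet in which laminin trimers and a collagen IV network are tied together. Sertoli cells inside and peritubular myoid cells outside both secrete its chains. A laminin is a trimer of an alpha, a beta and a gamma chain, and receptors such as integrins bind mainly the alpha chain. Outside the sheet lie fibrils of collagens I, III and V and microfibrils of collagen VI, made by myoid cells and interstitial fibroblasts.

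Values are on the log2 scale, so a difference of 1 is a doubling. Array medians over all rows lay between 8.075 and 8.1, and the lowest correlation between arrays was 0.997 within a group and 0.996 across groups. A value of 1 gene is not compared with that of another, because probes differ in brightness. Of the 54 genes 3 (Col10a1, Col19a1 and Col28a1) had a mean under 6.97, the lower quartile of tested rows. Only 25 had a mean at or above 8.54, the median of tested rows, and the rest are called dim below. Among the dim rows are those of Col12a1 and Col20a1, the members with the lowest and the highest difference, and Lama3, Lamb3, Col24a1 and Col28a1. Whether dim rows read above background was not tested. Each array is bulk tissue, so fewer cells of a type and less RNA per cell cannot be told apart. Sertoli cell markers averaged 11.28 in control and 11.35 in knockout arrays and spermatocyte markers 10.05 and 9.78 (means of each list).

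Control replicate 3 stood apart in some markers of the epididymis, the duct beside the testis, and not in others. Spink8 read 9.31 there against 5.38 to 5.60 on the other 5 arrays, Adam7 read 6.51 against 5.26 to 5.42 and Lcn5 7.48 against 6.53 to 6.93. Spint4 read 5.53 against 5.12 to 5.51. Lcn8, Lcn9, Lcn10 and Rnase10 lay within the range of the other arrays, and Defb21 was lowest there (7.42 against 7.44 to 7.62). The mean of the 9 epididymal markers, relative to the control mean, was 0.42 there and -0.30 to -0.13 elsewhere, raised there by Spink8, Adam7 and Lcn5. Between genotypes, the knockout mean was above the control mean in 4 markers and below it in 4, with a median difference of 0. Without control replicate 3, 0 members passed and the class medians given below were 0.055 (basement membrane), 0.03 (fibrillar) and 0.012 (other). The part of epididymal tissue in the members' values was not tested.

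Knockout and control testes were compared to ask whether the collagen and laminin chains differ with genotype. None of the 54 genes passed an adjusted p of 0.05 in limma, the smallest adjusted p being 0.394 (Lamc3). Over all 21789 rows 3 passed, which is 0.0138%. At an unadjusted p under 0.05, 2 members were higher in the knockout (Lamc3 and Col20a1), beside 4.1% of all rows, and 0 were lower, beside 6.45%. The 3 knockout values lay above all 3 control values in 3 members (Lamc3, Lama2 and Col6a6), beside 6.73% of rows, and below them in 1 member (Col24a1), beside 8.6%. These counts are near or under the background shares.

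The differences were small in every class. Basement membrane chains had a median difference (knockout minus control) of 0.038, with 13 of 16 genes above the control mean. Fibrillar collagens had a median of 0, with 5 above, 5 below and 1 at the control mean. The other collagens had a median of 0.01, with 16 of 27 above. Over all rows the median was 0.0033, and 51.3% of rows lay above the control mean. With each array centred on its median, all rows moved to a median of 0.023 and 61.5% above, and the classes to 0.058 (14 of 16 above), 0.02 (9 of 11) and 0.03 (18 of 27).

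**Figure D1:**
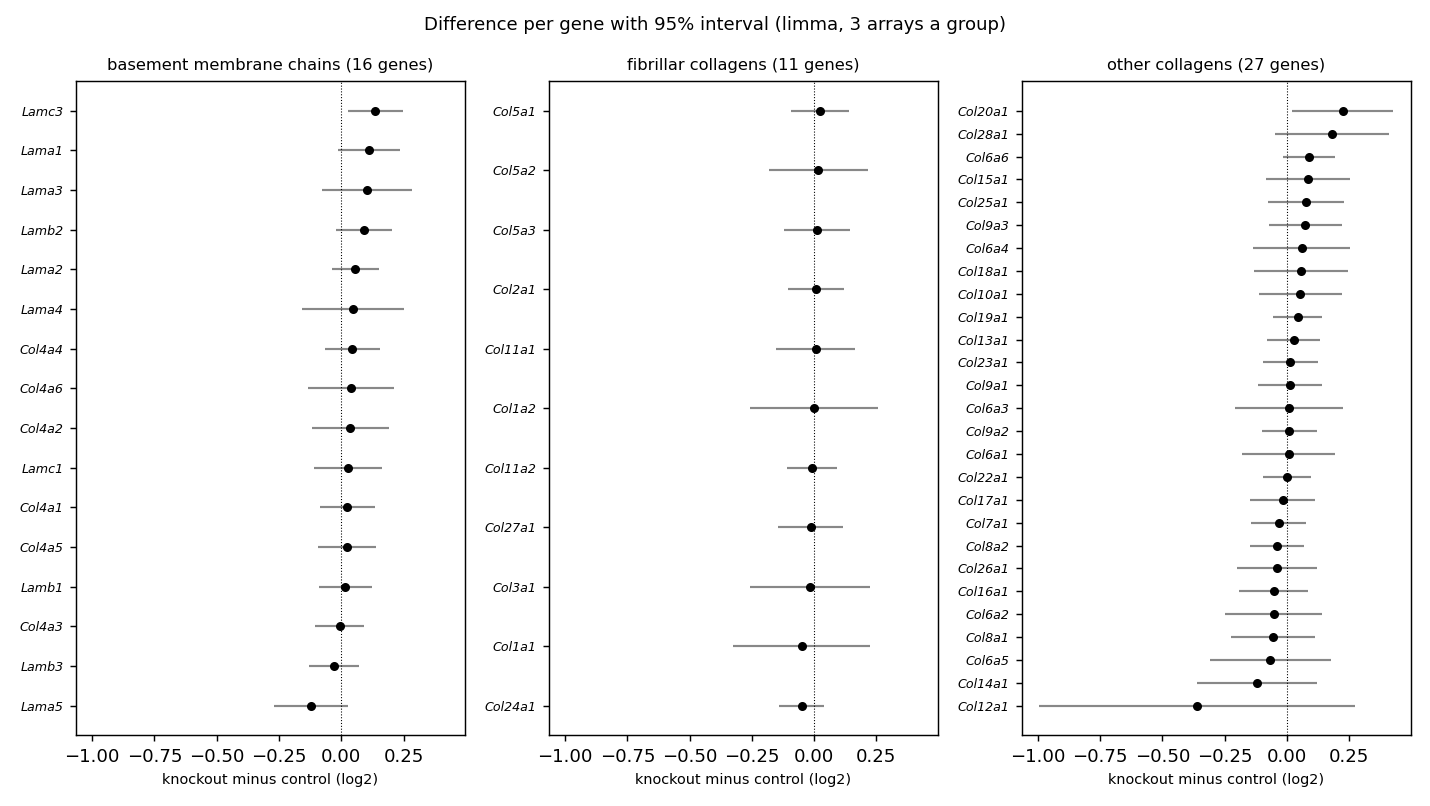
Each point is the knockout minus control difference of 1 gene on the log2 scale, and each bar its 95% interval from limma (3 arrays a group). The 3 panels hold the basement membrane chains, the fibrillar collagens and the other collagens. Bars of Lamc3 and Col20a1 lie right of 0, and the widest bar is that of Col12a1.

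The intervals, each for 1 gene and not adjusted for their number, show the range of sizes given the spread among these arrays. For the 16 basement membrane chains the 95% intervals ran at most from a fold of 0.830 (Lama5) to 1.22 (Lama3). For the 11 fibrillar chains they ran from 0.797 (Col1a1) to 1.2 (Col1a2). Among the other collagens they reached 0.502 for Col12a1 and 1.34 for Col20a1. The row of Col6a5 that did not stand for its gene had an interval of 0.552 to 1.43.

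Among laminin alpha chains, Lama1 and Lama2 were on the higher side and Lama5 on the lower side, without passing the test. Lama1, the alpha chain of the laminin of early embryonic basement membranes, read 10.39, 10.26 and 10.30 on control arrays 1 to 3. The knockout arrays gave 10.47, 10.45 and 10.36, a difference of 0.11 (SE 0.053, adjusted p = 0.517). Knockout replicates 1 and 2 stood above every control, while knockout replicate 3 stood below control replicate 1.

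Lama2, the alpha chain of muscle laminin, whose loss causes a muscular dystrophy, read 11.40, 11.33 and 11.36 in control arrays. Its knockout values were 11.41, 11.44 and 11.41. The groups did not overlap, though knockout replicates 1 and 3 stood just above control replicate 1, and the difference was 0.057 (SE 0.040, adjusted p = 0.674). Lama5, the alpha chain of many mature epithelial and vessel basement membranes, read 8.90, 8.84 and 8.79 in control and 8.78, 8.79 and 8.60 in knockout arrays (difference -0.12, SE 0.063, adjusted p = 0.551). Its groups met at 8.79, and knockout replicate 3 was the array farthest from the others. Without knockout replicate 3 the difference of Lama5 was -0.058.

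The other alpha chains varied as much within a group as between groups. Lama3, a chain of the laminin that anchors epithelia through hemidesmosomes, had a control mean of 7.96 ± 0.12 and a knockout mean of 8.06 ± 0.10 (SD, n = 3 each). Lama4, the alpha chain of blood vessel and interstitial laminins, read 8.66, 8.46 and 8.71 in control and 8.72, 8.74 and 8.51 in knockout arrays. Control replicate 2 and knockout replicate 3 were thus both low in Lama4, and the difference between groups was 0.047 (SE 0.087, adjusted p = 0.893).

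Of the beta chains, Lamb2 had the smallest p. Lamb2, the beta chain of glomerular and neuromuscular basement membranes, read 11.29, 11.18 and 11.25 in control and 11.38, 11.32 and 11.29 in knockout arrays. The difference was 0.09 (SE 0.048, adjusted p = 0.554), and the groups touched at 11.29. Lamb1, the beta chain of most embryonic laminins, averaged 10.47 ± 0.031 and 10.49 ± 0.052 (SD, n = 3 each). Lamb3, partner of the Lama3 chain in hemidesmosomes, averaged 7.14 ± 0.050 and 7.11 ± 0.015, with values of 7.09 to 7.19 over all arrays.

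The gamma chain Lamc3 had the smallest p of all members. Lamc3, which has been described in testis at the contacts of Sertoli and germ cells, read 10.51, 10.51 and 10.47 in control replicates 1, 2 and 3. It read 10.66, 10.68 and 10.56 in the knockout replicates. All knockout values lay above all control values, with a difference of 0.14 (SE 0.047, fold 1.10, 95% interval 1.02 to 1.19, adjusted p = 0.394), which did not pass. Over the alternatives tried it stayed between 0.11 and 0.18, with adjusted p-values of 0.214 to 0.699. Lamc1, the gamma chain shared by most laminins, read 10.23, 10.24 and 10.28 in control and 10.32, 10.35 and 10.16 in knockout arrays, so that the knockout arrays lay on both sides of the controls (difference 0.027, SE 0.058, adjusted p = 0.914).

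**Figure D2:**
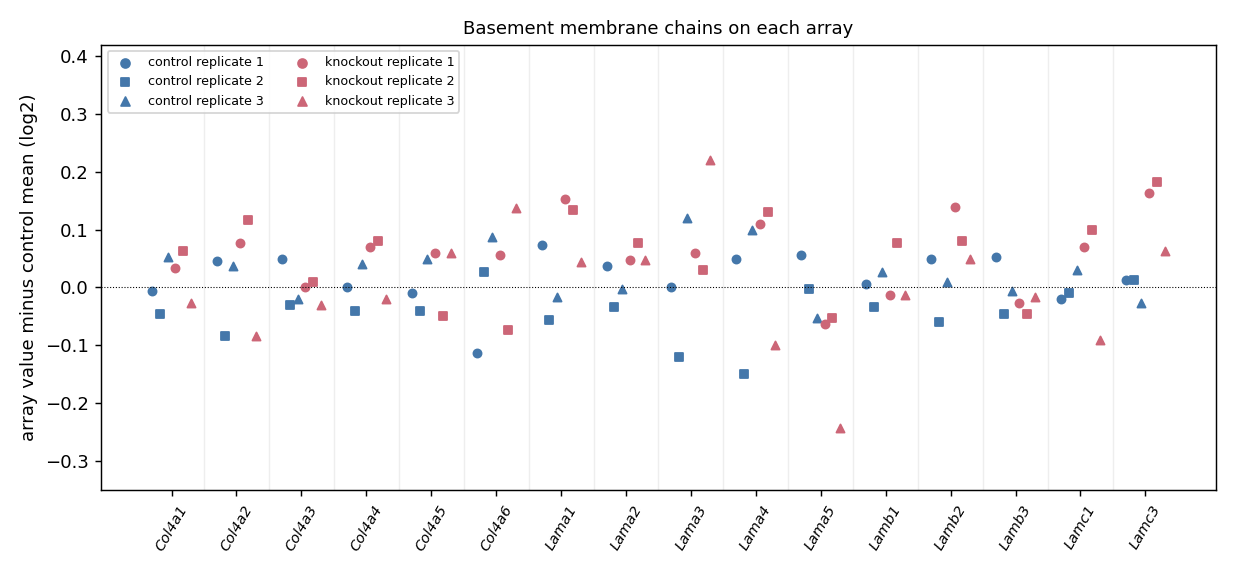
Each point is 1 array's log2 value minus the control mean of that gene, for the 6 chains of collagen IV and the 10 laminins (blue control, red knockout, shape by replicate number). All 3 knockout points of Lamc3 and Lama2 lie above the control points, and knockout replicate 3 of Lama5 is the lowest point.

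The genes of the collagen IV chains lie head to head in pairs. Col4a1 and Col4a2, the chains present in nearly every basement membrane, both lie on chromosome 8. Their RefSeq promoter windows (GRCm38.p6, 250 bases before to 50 after each start) are chr8:11312777-11313076 on the minus strand for Col4a1 and chr8:11312555-11312854 on the plus strand for Col4a2. The windows share 78 bases.

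Col4a1 read 9.17, 9.13 and 9.23 in control and 9.21, 9.24 and 9.15 in knockout arrays. Col4a2 read 9.76, 9.63 and 9.75 in control and 9.79, 9.83 and 9.63 in knockout arrays. Both genes were lowest of their group in control replicate 2 and in knockout replicate 3 and highest of all in knockout replicate 2. Their differences were 0.023 (SE 0.047, adjusted p = 0.901) and 0.037 (SE 0.066, adjusted p = 0.888), well inside the spread within groups.

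The chains of more restricted basement membranes were as close. Col4a3 and Col4a4, mutated in Alport kidney disease and also made in testis, are neighbours on chromosome 1. Col4a3 averaged 9.21 ± 0.044 in control and 9.20 ± 0.021 in knockout arrays, and Col4a4 9.39 ± 0.040 and 9.43 ± 0.055 (SD, n = 3 each). Col4a5 and Col4a6, on the X chromosome, averaged 8.31 ± 0.046 and 7.51 ± 0.10 in control arrays and 8.33 ± 0.064 and 7.55 ± 0.11 in knockout arrays. The 6 chains had differences of -0.0067 to 0.043 and adjusted p-values of 0.790 or more, and the sign of the lowest, Col4a3, turned to 0.013 when arrays were centred.

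Among the 3 classes, the median size of the difference was smallest in the fibrillar collagens. The spread among control arrays was wide in Col1a1, Col1a2, Col3a1 and Col5a2 (SD 0.17 to 0.21). In the other fibrillar chains it ran from 0.0058 (Col2a1) to 0.11 (Col11a1). Col1a1, a chain of collagen I, read 11.01, 10.70 and 11.09 on the control arrays, against 10.96, 10.99 and 10.70 on the knockout arrays. Col1a2, its partner in the collagen I trimer, read 11.31, 10.95 and 11.33 in control and 11.25, 11.27 and 11.07 in knockout arrays. Col3a1, the chain of collagen III, read 10.17, 9.84 and 10.22 in control and 10.11, 10.11 and 9.96 in knockout arrays.

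In these 3 genes control replicate 2 and knockout replicate 3 were the lowest arrays of their groups, and the other 4 arrays lay close together. The differences between groups were -0.05 (SE 0.12) for Col1a1, 0 (SE 0.11) for Col1a2 and -0.017 (SE 0.10) for Col3a1, with adjusted p-values of 0.920, 1 and 0.973. The signs depended on single arrays. Without control replicate 2 the differences of Col1a1, Col1a2 and Col3a1 were -0.17, -0.12 and -0.14, and without knockout replicate 3 they were 0.042, 0.063 and 0.033. Without both arrays they were -0.075, -0.06 and -0.085.

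Col5a1 and Col5a2, chains of the collagen that sets the width of collagen I fibrils, differed by 0.023 and 0.017, and Col5a3 by 0.013. Col5a2, a neighbour of Col3a1 on chromosome 1, read 7.88, 7.65 and 7.97 in control and 7.92, 7.84 and 7.79 in knockout arrays, and so was lowest in the same replicates. The chains known best from cartilage were near their control means as well: Col2a1 by 0.0067, Col11a1 by 0.0067 and Col11a2 by -0.0067, while Col27a1 differed by -0.013. Centring the arrays turned the signs of Col3a1, Col11a2 and Col27a1, to 0.0033, 0.013 and 0.0067. Col24a1, a minor fibrillar chain, read 7.63, 7.68 and 7.64 in control and 7.59, 7.60 and 7.61 in knockout arrays. These groups did not overlap, with a difference of -0.05 (SE 0.039, adjusted p = 0.701).

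Collagen VI, which forms microfibrils between cells and fibrils, is read by 6 genes. Col6a1, Col6a2 and Col6a3, chains of its main trimer, differed by 0.0067, -0.053 and 0.01. Col6a2 read 10.05, 9.90 and 10.13 in control and 10.02, 10.07 and 9.83 in knockout arrays, again lowest in control replicate 2 and knockout replicate 3. The genes of the alternative chains, Col6a4, Col6a5 and Col6a6, lie on chromosome 9. Col6a4 differed by 0.06 (SE 0.083). Col6a6 read 8.70, 8.74 and 8.72 in control and 8.87, 8.79 and 8.77 in knockout arrays, which did not overlap (difference 0.09, SE 0.044, adjusted p = 0.524).

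Rows of the same gene disagreed there. The other row of Col6a6 differed by 0.013 (SE 0.078). Col6a5 differed by -0.067 in the row used and by -0.17 in its other row (SE 0.10 and 0.29), and in that other row control replicate 3 read 8.74 while the other 5 arrays read 7.57 to 8.16.

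The widest spread belonged to Col12a1, which encodes a collagen on the surface of fibrils in dense connective tissue. It read 8.39, 7.56 and 8.46 on the control arrays, against 7.96, 8.02 and 7.35 on the knockout arrays, a difference of -0.36 (SE 0.27, adjusted p = 0.692). Control replicate 2 and knockout replicate 3 were low here by more than in any other member. Without both of them the difference was -0.44 (adjusted p = 0.621), without control replicate 2 alone -0.65 and without knockout replicate 3 alone -0.15.

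Col14a1, of the same fibril-associated family, read 9.36, 9.06 and 9.38 in control and 9.19, 9.25 and 9.0 in knockout arrays. Its difference was -0.12 (SE 0.10, adjusted p = 0.726) with all arrays, -0.15 without control replicate 2 and knockout replicate 3, -0.22 without the first of them and -0.047 without the second. Col12a1 and Col14a1 were the 2 members lower at an unadjusted p under 0.05 without control replicate 2, beside 5.08% of all rows in that setting. With all arrays 0 members were lower.

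At the other end, Col20a1, a further fibril-associated collagen, read 8.14, 8.13 and 8.31 in control and 8.41, 8.27 and 8.57 in knockout arrays. Its difference of 0.22 (SE 0.086, fold 1.17, adjusted p = 0.427) was the highest of all members, and the groups overlapped through control replicate 3. It was 0.15 without knockout replicate 3. Col28a1, a beaded collagen of nerve sheaths, read 7.11, 6.79 and 6.73 in control and 7.09, 7.08 and 7.0 in knockout arrays (difference 0.18, SE 0.097, adjusted p = 0.557). Without control replicate 1 its difference was 0.30 (adjusted p = 0.104), and over all alternatives its adjusted p lay between 0.104 and 0.782.

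Col15a1 and Col18a1, whose products carry sugar chains and link basement membranes to the fibrils around them, differed by 0.083 (SE 0.072, adjusted p = 0.729) and 0.057 (SE 0.081, adjusted p = 0.853). The remaining 15 collagens of this class ranged from -0.057 (Col8a1) to 0.077 (Col25a1).

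**Figure D3:**
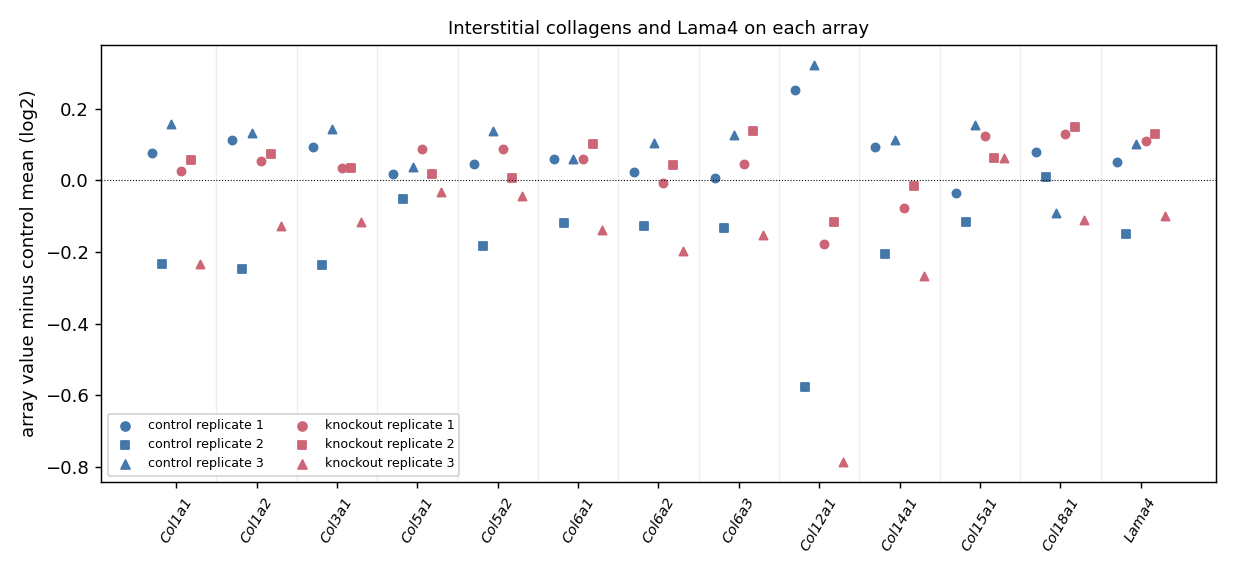
Each point is 1 array's log2 value minus the control mean of that gene, for 12 collagens and Lama4 (blue control, red knockout, shape by replicate number). Control replicate 2 (blue square) and knockout replicate 3 (red triangle) lie lowest in their groups for every gene shown except Col15a1 and Col18a1. In Col15a1 knockout replicates 2 and 3 tie, and Col18a1 shows another order.

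The array order recurred among members. In 20 of 54 genes control replicate 2 was the lowest control array and knockout replicate 3 the lowest knockout array, against 12.7% of all tested rows. By class this held for 7 of 16 basement membrane chains, 6 of 11 fibrillar collagens and 7 of 27 others. It held in all 6 of Col1a1, Col1a2, Col3a1, Col6a1, Col6a2 and Col6a3. This count and these 6 genes were chosen after the values were seen, and members share arrays, so it is a description without a test.

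As the mean of those 6 genes relative to the control mean, control replicates 1, 2 and 3 stood at 0.062, -0.18 and 0.12 and knockout replicates at 0.036, 0.074 and -0.16. The spread within a group was larger than the difference between the group means (10.39 ± 0.16 and 10.37 ± 0.13, SD, n = 3 each). Because these genes were chosen after their array order was seen, the choice itself favours a wide spread within groups. Class means of the basement membrane chains stood at 0.018, -0.045 and 0.027 in control and 0.059, 0.054 and -0.0002 in knockout arrays. Knockout replicates 1 and 2 lay above all controls, and knockout replicate 3 did not.

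Upstream sequences are printed for 3 genes of this array order, Col1a2, Col3a1 and Col6a1. The 250 bases before their RefSeq starts overlap no gene annotated in GRCm38.p6. Overlap for the other genes of this order is not given here. Both strands were searched for known promoter elements, and matches are in capitals. The letters CCAAT form a box bound by nuclear factor Y. The letters GGGCGG are the core bound by the factor Sp1 and its relatives. The letters TATAAA are those of the classical TATA element. The windows are chr6:4505368-4505617 (plus strand) for Col1a2, chr1:45311288-45311537 (plus strand) for Col3a1 and chr10:76726045-76726294 (minus strand) for Col6a1, each written 5′ to 3′ on the gene's strand.
Col1a2: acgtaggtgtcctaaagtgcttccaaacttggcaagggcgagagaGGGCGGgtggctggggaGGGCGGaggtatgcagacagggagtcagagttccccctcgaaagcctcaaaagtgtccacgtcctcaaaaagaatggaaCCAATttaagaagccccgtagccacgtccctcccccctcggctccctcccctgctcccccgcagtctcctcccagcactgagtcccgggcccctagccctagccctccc
Col3a1: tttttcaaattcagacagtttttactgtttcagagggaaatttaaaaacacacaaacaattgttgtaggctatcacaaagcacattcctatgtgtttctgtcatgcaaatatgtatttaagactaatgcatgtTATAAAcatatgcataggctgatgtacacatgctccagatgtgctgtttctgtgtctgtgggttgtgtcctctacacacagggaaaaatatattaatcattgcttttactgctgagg
Col6a1: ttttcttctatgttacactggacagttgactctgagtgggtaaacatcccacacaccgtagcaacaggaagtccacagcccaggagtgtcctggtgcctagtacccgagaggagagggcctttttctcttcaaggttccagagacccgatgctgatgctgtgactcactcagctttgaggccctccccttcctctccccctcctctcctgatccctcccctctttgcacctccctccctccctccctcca

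The 3 windows did not share a motif of those searched. Col1a2 held CCAAT from base -109 and GGGCGG from bases -205 and -188 before the start, Col3a1 held TATAAA from base -117, and Col6a1 held none of the 3. RefSeq promoter windows were found for 40 of the 54 genes, 44 windows in all. CCAAT was in 14 of them (31.8%, against 33.8% of all 32851 windows), GGGCGG in 24 (54.5%, against 32.7%) and TATAAA in 5 (11.4%, against 12.4%). A match here is only a run of letters and does not mark a bound site.

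Markers of the cells that make these chains were read on the same arrays. Interstitial fibroblast markers (12 genes, 8 above the control mean, median 0.053) stood at -0.026, -0.13 and 0.15 in control and 0.039, 0.084 and -0.0031 in knockout replicates 1, 2 and 3, so control replicate 2 was the lowest array here too. Peritubular myoid markers (12 genes, 4 above, median -0.017) ran from -0.0081 to 0.014 in control arrays. They stood at 0.014, 0.034 and -0.082 in knockout replicates 1, 2 and 3. Markers of the mesothelium that covers the testis (9 genes, 0 above, median -0.14) ran from -0.072 to 0.056 in control arrays and stood at -0.041, 0.037 and -0.37 in knockout arrays. In 8 of those 9 genes knockout replicate 3 was the lowest knockout array, beside 34.1% of all tested rows. The same held for 9 of 12 myoid, 13 of 15 endothelial and 7 of 12 fibroblast markers. Endothelial markers (15 genes, 8 above, median 0.0033) ran from -0.050 to 0.061 in control and from -0.098 to 0.039 in knockout arrays, again lowest in knockout replicate 3. The part of these cell types in the order of the arrays was not tested.

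**Figure D4:**
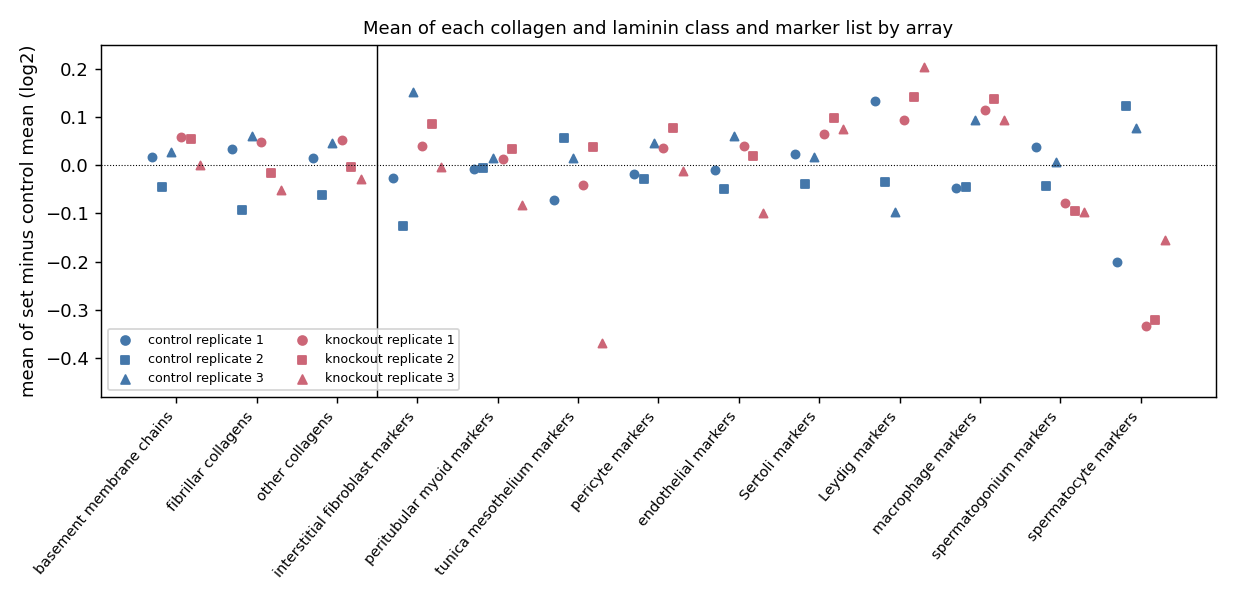
Each point is the mean log2 value of a class or marker list on 1 array minus its mean over the control arrays (blue control, red knockout, shape by replicate number). Left of the line stand the 3 classes of chains and right of it 10 lists of cell type markers. Knockout replicate 3 stands at -0.37 in the mesothelium list, and Sertoli markers are higher in all 3 knockout arrays.

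Sertoli cells secrete laminins, and their markers were read beside them. Sertoli markers (19 genes, 17 above the control mean, median 0.073) stood at 0.023, -0.040 and 0.017 in control and 0.065, 0.097 and 0.075 in knockout arrays, while laminins stood at 0.032, -0.050 and 0.018 and at 0.064, 0.071 and -0.004. No Sertoli marker passed, and the smallest p-values were those of Kitl, the stem cell factor (0.28, adjusted p = 0.235), and Nr5a1, a nuclear receptor (0.18, adjusted p = 0.291). Spermatocyte markers (14 genes, 2 above, median -0.17) stood at -0.20, 0.12 and 0.078 in control and -0.33, -0.32 and -0.16 in knockout arrays. Their part in the values of the laminins was not tested.

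Other lists had medians of -0.11 (spermatogonia, 13 genes, 2 above), 0.12 (Leydig cells, 9 genes, 8 above), 0.12 (macrophages, 14 genes, 13 above), 0.02 (pericytes, 8 genes, 6 above), -0.02 (cartilage, 9 genes, 4 above) and 0.13 (erythrocytes, 3 genes, 2 above). At an unadjusted p under 0.05, 6 of 13 spermatogonial and 7 of 14 spermatocyte markers were lower, beside 6.45% of all rows. Also lower were 2 endothelial markers and 1 Leydig marker. Higher, beside 4.1% of all rows, were 4 of 14 macrophage, 3 of 19 Sertoli, 2 Leydig and 2 spermatogonial markers. So was 1 marker each of pericytes, cartilage, erythrocytes and epididymis. Myoid, fibroblast and mesothelium markers had 0 in either direction. Of 230 genes in the marker and pathway lists together, 0 passed an adjusted p of 0.05.

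Other components of basement membranes include nidogens, perlecan and the proteins that anchor the sheet. Of 18 measured genes 5 lay above their control mean and 12 below it (median -0.028), 2 were lower (6.45% of all rows were) and 0 higher (4.1% of all rows) at an unadjusted p under 0.05, and 0 passed. Fras1, which encodes a large protein of embryonic basement membranes that is missing in Fraser syndrome, read 8.03, 8.0 and 8.13 in control and 7.77, 7.74 and 7.66 in knockout arrays. The groups did not overlap, and the difference of -0.33 (SE 0.053, adjusted p = 0.242) did not pass. Agrn, the heparan sulfate proteoglycan agrin, read 9.17, 9.04 and 9.13 in control and 9.01, 8.97 and 8.77 in knockout arrays (difference -0.20, SE 0.072, adjusted p = 0.414).

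Receptors for laminins and collagens had a median of 0.025 (16 genes, 9 above, 7 below, 0 past the threshold). The smallest p-values were those of the syndecan Sdc1 (-0.20, SE 0.080, adjusted p = 0.439) and of Ddr2, a kinase that binds fibrillar collagen (0.11, SE 0.047, adjusted p = 0.474). Ddr2 read 9.63, 9.56 and 9.64 in control and 9.76, 9.74 and 9.66 in knockout arrays, which did not overlap.

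Enzymes that modify and fold collagen had a median of 0.0033 (17 genes, 9 above, 0 passed), with the smallest p-values in P4ha3 (-0.17, adjusted p = 0.507) and P4ha1 (0.11, adjusted p = 0.513), catalytic subunits of prolyl hydroxylase. Genes of trimming, crosslinking and fibril assembly had a median of 0.027 (19 genes, 11 above, 0 passed), led by the crosslinking enzymes Lox (-0.24, SE 0.11, adjusted p = 0.485) and Tgm2 (0.11, adjusted p = 0.5). Matrix proteases, their inhibitors and uptake receptors had a median of 0.048 (16 genes, 13 above, 0 passed). Their smallest p-values were those of Mrc2, a receptor that takes up collagen (-0.16, adjusted p = 0.381), and the membrane protease Mmp16 (0.12, adjusted p = 0.393), both with groups that did not overlap.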

How the data were processed

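The deposited table gives 1 log2 value per transcript cluster and array. Per the submitters' processing notes the authors made these log2 values with RMA in Affymetrix Expression Console; for versions, probe annotation and build the entry is "not given in the sources used here". RMA gives all arrays 1 distribution, so a shift of all transcripts would not show. Scanner files, detection calls and scan dates were not used here. Of 35556 rows, 21789 with 1 platform symbol were tested, 1621 had several symbols and 12146 were unnamed. Every column belonged to a sample of the series, and no array copied another (at most 4.12% identical values).

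Groups came from the titles. R 4.3.3 with limma 3.58.1 (lmFit, eBayes, no covariates; 4 residual and 3.24 prior degrees of freedom) compared knockout with control, with Benjamini-Hochberg adjustment over all 21789 rows, a threshold of 0.05 and 95% intervals. The procedure was tested on simulated data. Class medians carry no test. Deviations of same-numbered arrays from their group means correlated at 0.17, -0.054 and 0.17 for replicates 1, 2 and 3. The other 6 pairs ran from -0.23 to 0.084. Because the replicate 2 pair was under 0.1, the numbers were not treated as pairs.

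Members, lists and alternatives were chosen with earlier results of these data known. Named were all basement membrane and fibrillar chains. Of the other collagens those with an unadjusted p under 0.05 and the 3 highest and 3 lowest were named by rule. The 2 genes with the smallest p were named for the Sertoli list and for each pathway list. For the other marker lists the genes with the smallest p are not named here. Other collagens were named after their values were seen. Genes of the lists without a measured row were not analysed here, and the targeted gene is not reported here. Promoter sequences are from RefSeq (GRCm38.p6).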

Additional observations from a re-analysis of the deposited data

How the results depend on the processing

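No collagen or laminin passed an adjusted p of 0.05 under any alternative. The 3 rows passing over all genes became 0 with the replicate block, 0 with all rows tested, 0 at an adjusted p of 0.01, 7 with an intensity trend and robust prior, and 0 to 52 when 1 array was left out. With the replicate block 0 members passed, and the block changed no call among them. Members higher at an unadjusted p under 0.05 (2) numbered 4 with centred arrays (6.9% of all rows there), 1 of 25 without dim rows (5.54%), 4 with the intensity trend (4.55%), and 0 to 3 with arrays left out (2.81% to 5.01%). Members lower (0) numbered 0 to 2 with arrays left out (4.41% to 6.15% of rows). Genes of the lists that passed (0) numbered 0 to 2, 2 of them without control replicate 1. Leaving out control replicate 2 with knockout replicate 3 was chosen after seeing the data. Class medians ran from 0.0125 to 0.055 (basement membrane), -0.035 to 0.033 (fibrillar) and -0.0083 to 0.022 (other) with 1 array left out. Centring turned the sign of 5 of 54 members, Col4a3 (0.013), Col11a2 (0.013), Col27a1 (0.0067), Col3a1 (0.0033) and Col17a1 (0.0033). With arrays left out, signs turned for 30 of 54 members, which ranged from -0.015 to 0.16 (Lama3), -0.028 to 0.12 (Lama4), -0.017 to 0.097 (Col4a6), -0.005 to 0.097 (Col4a2), -0.01 to 0.085 (Lamc1), -0.015 to 0.06 (Col4a5), -0.013 to 0.032 (Lamb1), -0.022 to 0.018 (Col4a3), -0.0083 to 0.052 (Col5a1), -0.075 to 0.085 (Col5a2), -0.025 to 0.068 (Col5a3), -0.017 to 0.048 (Col2a1), -0.058 to 0.042 (Col11a1), -0.022 to 0.018 (Col11a2), -0.063 to 0.022 (Col27a1), -0.14 to 0.055 (Col3a1), -0.17 to 0.042 (Col1a1), -0.06 to 0.11 (Col6a4), -0.0083 to 0.12 (Col10a1), -0.017 to 0.043 (Col23a1), -0.02 to 0.055 (Col9a1), -0.057 to 0.092 (Col6a3), -0.0083 to 0.038 (Col9a2), -0.053 to 0.08 (Col6a1), -0.063 to 0.022 (Col17a1), -0.062 to 0.0033 (Col7a1), -0.12 to 0.02 (Col26a1), -0.12 to 0.018 (Col6a2), -0.12 to 0.005 (Col8a1) and -0.14 to 0.06 (Col6a5). Col1a2, at 0 with all arrays, ranged from -0.12 to 0.067. The cause was not tested. With 3 arrays a group, the number of arrays limits the precision.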
